A study of Mus musculus with 6 samples.

Results

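The interleukin-1 family was described here in sorted oesophageal epithelial cells of mice through 10 genes, taken by symbol from a table of 52636 gene IDs. They are the ligands Il1a, Il1b, Il18 and Il33, the interleukin-36 agonists Il1f6, Il1f8 and Il1f9, the receptor antagonists Il1rn and Il1f5, and the decoy receptor Il1r2. The set was named with results of these data known, and Il1f5 is in it because it rose with ibuprofen. The contrast of ibuprofen with untreated is therefore a description for these genes, given with fold changes and errors and without p-values. The study holds 3 untreated and 3 ibuprofen libraries. Every mouse, the untreated ones included, carried Krt5-CreERT2:R26SmoM2/EYFP and had received tamoxifen 12 weeks earlier. In that model a Cre active in keratin 5 cells switches on SmoM2, a form of the Hedgehog transducer Smoothened that is always active. The treated mice drank ibuprofen, a cyclooxygenase inhibitor, at 0.6 g per l. Live cells of the thoracic oesophagus were sorted for high EpCAM, and mouse age is not given in the sources used here. Mice without SmoM2 are not part of the comparison.

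Cytokines of this family are alarm and defence signals of barrier tissues such as skin and oesophagus. IL-1 alpha and IL-1 beta bind the receptor encoded by Il1r1 together with the accessory chain Il1rap, and signal through Myd88 and the Irak kinases to NF-kB. The antagonist encoded by Il1rn occupies that receptor without signalling, while the decoy encoded by Il1r2 binds ligand and cannot signal. IL-36 alpha, beta and gamma, encoded by Il1f6, Il1f8 and Il1f9, act through a separate receptor, Il1rl2, which the Il1f5 product blocks. IL-1 beta and IL-18 are made as precursors that caspase-1 cuts, and IL-33 is stored in nuclei and acts through Il1rl1 (ST2).

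Of the 10 genes, 5 lie within 198 kb of chromosome 2 in GRCm38 (24153161 to 24351494), in the order Il1f8, Il1f9, Il1f6, Il1f5 and Il1rn, all on the plus strand. Il1a and Il1b lie elsewhere on chromosome 2, at 129299610 to 129309972 and 129364570 to 129371139. Il1r2 is on chromosome 1, Il18 on chromosome 9 and Il33 on chromosome 19. Promoter sequences of 9 of the 10 genes were found in RefSeq annotation of GRCm38.p6. Shown here are the 250 bases before the first annotated start of 3 neighbours in the cluster. In Il1f5 and Il1f9 every ibuprofen library lay above every untreated one, as in 14.2% of all tested genes, and in Il1rn the groups overlapped. Il1f5 is in the set for that rise, and a link between motifs and these levels was not tested. The windows are chr2:24276704-24276953 for Il1f5, chr2:24186226-24186475 for Il1f9 and chr2:24336610-24336859 for Il1rn, each 5′ to 3′ on the plus strand, with motif matches in capitals.
Il1f5: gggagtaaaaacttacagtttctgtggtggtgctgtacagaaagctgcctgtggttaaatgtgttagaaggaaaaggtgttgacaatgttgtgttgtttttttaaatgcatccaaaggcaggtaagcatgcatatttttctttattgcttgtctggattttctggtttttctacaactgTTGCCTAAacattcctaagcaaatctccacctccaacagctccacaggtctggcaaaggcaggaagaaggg
Il1f9: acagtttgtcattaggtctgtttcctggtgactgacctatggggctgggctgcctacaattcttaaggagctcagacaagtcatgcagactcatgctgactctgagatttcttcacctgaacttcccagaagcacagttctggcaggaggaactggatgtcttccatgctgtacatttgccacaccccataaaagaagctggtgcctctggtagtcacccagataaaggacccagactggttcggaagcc
Il1rn: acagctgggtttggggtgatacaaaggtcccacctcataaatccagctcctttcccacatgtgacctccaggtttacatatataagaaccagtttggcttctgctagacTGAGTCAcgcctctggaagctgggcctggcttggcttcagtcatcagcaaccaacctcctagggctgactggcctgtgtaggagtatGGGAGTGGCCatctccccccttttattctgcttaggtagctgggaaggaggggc
The search covered NF-kB (GGGNNNNNCC), AP-1 (TGANTCA), C/EBP (TTGCNNAA) and the TATA box (TATAAA) on both strands. The Il1f5 window held a C/EBP match that begins 71 bases before the start, and 9.56% of all 32851 promoter windows of this length held one. The Il1rn window held an AP-1 match 141 bases before the start (6.75% of all windows) and an NF-kB match 54 bases before it (45.8% of all windows). The Il1f9 window held none of these letters. A TATA match, found in 12.4% of all windows, was absent from these 3 and lay 32 bases before the start of Il1a and 31 bases before that of Il1b. Il33 held one in both of its windows, 29 and 203 bases before the start, and Il18 one 175 bases before its start. In windows before later annotated starts, not shown, Il1f5 held an NF-kB match 63 bases before the start. A later Il1rn window held an NF-kB match 51 bases before its start. The matches describe the letters only and say nothing of whether a factor binds there.

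The libraries held an estimated 6361297 to 8764370 reads assigned to genes, so 3 reads correspond to 0.342 to 0.472 CPM, the deposited unit, which scales a gene's reads to the library's total. Markers fit the label of oesophageal epithelium, with all 7 epithelial genes above 3 reads in every library and Krt5 the highest in CPM at a mean of 3250. The epithelial list summed to 9860 to 11000 CPM untreated against 8020 to 9290 CPM with ibuprofen, lower in every ibuprofen library. Keratins make up most of that sum. Mean CPM untreated and with ibuprofen was 3620 and 2880 for Krt5, 2130 and 1450 for Krt14, and 2310 and 1910 for Krt13. Krt4 averaged 166 and 153 CPM, Trp63 1370 and 1320, the sort marker Epcam 261 and 259, and Cdh1 602 and 634. In this list only Krt14 had groups that do not overlap. The cells that make much IL-1 beta elsewhere left few reads. The summed neutrophil list (5 genes) was at 0 to 0.4 CPM untreated against 0.15 to 0.4 CPM with ibuprofen, with Ly6g and Retnlg at 0 in all libraries. The macrophage list (6 genes) summed to 9.24 to 12.7 and 13.3 to 17.7 CPM, higher in every ibuprofen library, with Cd68 and Csf1r as its main genes and Adgre1 at 0. Cd68 averaged 5.2 CPM untreated and 8.59 CPM with ibuprofen, without overlap. Csf1r averaged 5.3 and 5.73 CPM and overlapped, and Cd14 averaged 0.85 and 0.749 CPM. The dendritic and Langerhans list (5 genes) summed to 15.6 to 17.4 and 14.2 to 21.1 CPM, mostly H2-Ab1, with Cd207 at 0. The T cell list (5 genes) reached at most 0.3 and 0.65 CPM, led by Cd3e. The mast cell list (5 genes) summed to 3.4 to 4.45 and 4.45 to 16.5 CPM, all of it Kit, with the other 4 genes at 0. Fibroblast genes, all 6 present and led by Dcn, summed to 42.9 to 85.5 and 65 to 144 CPM, which overlap. Endothelial genes (5 listed), led by Pecam1, summed to 14.8 to 15.8 and 17 to 20.2 CPM, higher in every ibuprofen library. Of these, Pecam1 and Vwf had higher means with ibuprofen. Lower means were found for Cdh5 (0.933 CPM untreated, 0.217 CPM with ibuprofen), Kdr (0.117 and 0.05 CPM) and Emcn (0.15 and 0.0833 CPM). Of these 44 marker genes 20 passed the filter, and limma called 0 at an adjusted p under 0.05 and 4 at an unadjusted one, beside 17.9% of all tested genes. Those 4 had log2 differences of -0.32 for Krt5, -0.54 for Krt14, 0.65 for Cd68 and 0.98 for Zbtb46, ibuprofen minus untreated. Zbtb46 had 2, 6 and 6 estimated reads untreated and 14, 10 and 32 with ibuprofen. It passed the filter only through its ibuprofen libraries, so nothing is read from its rise. The part of these markers in the members' values was not tested. In bulk libraries fewer cells of a type and less RNA per cell cannot be told apart.

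The member with the most RNA per length of exon was the decoy receptor gene Il1r2, at 68.5 to 90.3 CPM per kb of exon over the 6 libraries. Il1r2 and Il1rn together took 84.7% of all estimated reads of the 10 genes, a share not corrected for length. Il1r2 had 151, 172 and 165 CPM in untreated replicates 1, 2 and 3, against 153, 131 and 161 CPM in the ibuprofen libraries. Values below follow the same order of replicates. The groups overlap, with the lowest value in ibuprofen replicate 2. The fold change of Il1r2, given throughout as the difference of group means of log2(CPM + 1), positive where ibuprofen was higher, was -0.14 ± 0.11 (SE). Il1rn had 75.6, 106 and 93.1 CPM untreated against 91.8, 105 and 109 CPM with ibuprofen. Its groups overlap too, and the lowest value was in untreated replicate 1, the library with the fewest reads. The fold change of Il1rn was 0.16 ± 0.13 (SE). The gene has a secreted and an intracellular form made from different starts, which a gene total does not separate.

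Il1f5 and Il1f9 were the members whose ibuprofen libraries all lay above the untreated ones, as did 14.2% of all tested genes. Il1f5, the IL-36 receptor antagonist, had 2.7, 2.3 and 1.65 CPM in the untreated libraries, in replicate order, against 5.15, 6.4 and 7 CPM in the treated ones. These values rest on 17, 20 and 14 estimated reads untreated and 42, 49 and 61 with ibuprofen. Its means were 2.22 ± 0.529 and 6.18 ± 0.943 CPM (SD, n = 3), a ratio of 2.79, and the log2 fold change was 1.16 ± 0.21 (SE). Il1f9, encoding the agonist IL-36 gamma, had 16.3, 18.5 and 26 CPM untreated against 31.7, 37 and 46.9 CPM with ibuprofen. Every ibuprofen library exceeded every untreated one, and replicate 3 was the highest in each group. Its means were 20.3 ± 5.06 and 38.5 ± 7.68 CPM (SD, n = 3), a ratio of 1.9, and the log2 fold change was 0.9 ± 0.19 (SE). The IL-36 agonist gene Il1f9 and the antagonist gene Il1f5 were both at higher RNA levels in the ibuprofen libraries, and Il1f5 is in the set for that rise. The other agonist genes, Il1f6 and Il1f8, were too low for the filter.

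**Figure D1:**
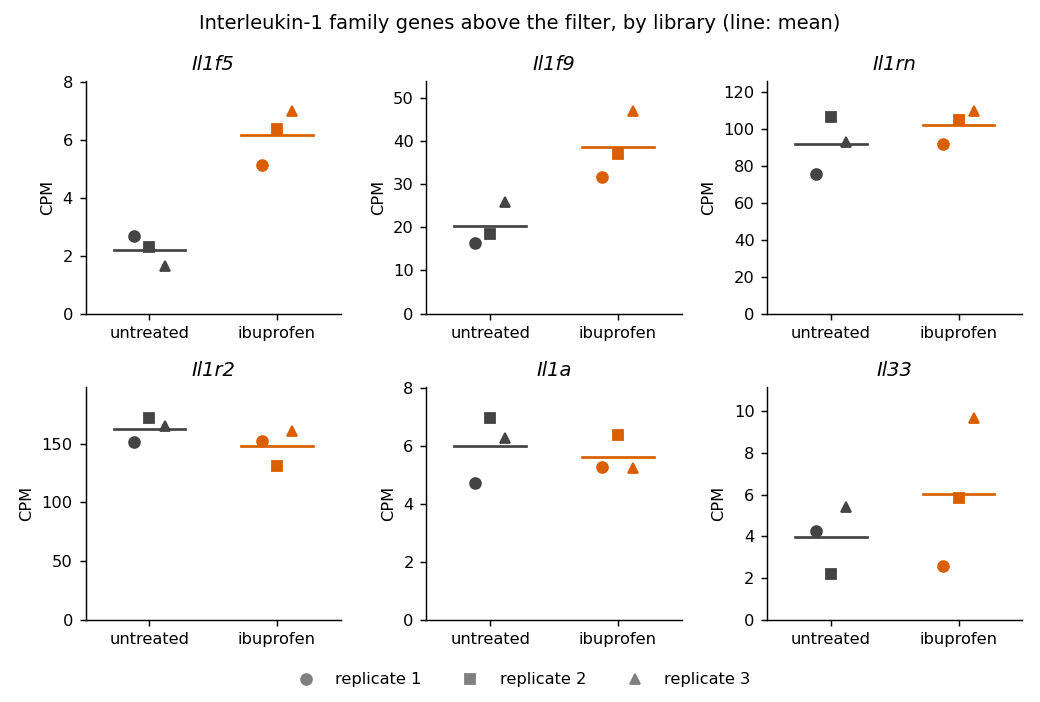
CPM (y axis, from 0) of the 6 members above the filter in each library, by group on the x axis, with a line at the group mean and marker shapes for replicates. The untreated and ibuprofen points are apart for Il1f5 and Il1f9 and overlap for Il1rn, Il1r2, Il1a and Il33.

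Of the ligands for the other receptors, Il1a and Il33 were measured at a few CPM. Il1a, an alarm cytokine held ready in epithelial cells, had 4.75, 7 and 6.3 CPM untreated against 5.3, 6.4 and 5.25 CPM with ibuprofen. The groups overlap, and the log2 fold change was -0.07 ± 0.2 (SE). The span of Il1a overlaps Gm14023, a noncoding gene on the opposite strand listed at up to 3.7 CPM. Whether counting used strand is not given in the sources used here, so reads of these overlapping genes cannot be told apart. Il33 had 4.25, 2.2 and 5.4 CPM untreated against 2.6, 5.85 and 9.69 CPM with ibuprofen. The groups overlap, with the lowest value in untreated replicate 2 and the highest in ibuprofen replicate 3, and the log2 fold change was 0.43 ± 0.37 (SE). Il33 is also made by fibroblasts and endothelial cells, whose marker sums in the 3 ibuprofen libraries were 144, 98.4 and 65 CPM for fibroblasts and 17.7, 17 and 20.2 CPM for endothelium. The part of those cells in Il33 was not tested.

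The other 4 members were too low for the filter of 1 CPM in at least 3 libraries. Il1b stayed below 3 reads in all 6 libraries, with 2, 2 and 0 estimated reads untreated and 2, 2 and 1 with ibuprofen, and is below detection here. Il18 had 0, 3 and 2 reads untreated and 7, 1 and 1 with ibuprofen. It reached 3 reads in 2 of 6 libraries, at most 0.899 CPM. Il1f6, encoding IL-36 alpha, had 0, 1 and 3 reads untreated and 0, 1 and 14 with ibuprofen, so most of its reads came from ibuprofen replicate 3. Il1f8, encoding IL-36 beta, had 1, 0 and 0 reads untreated and 1, 3 and 3 with ibuprofen. Neither Il18, Il1f6 nor Il1f8 separated the groups, and at this depth a difference was not detectable. A value of 0 reads still allows an expected 3 reads, and such limits cover counting error only.

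**Figure D2:**
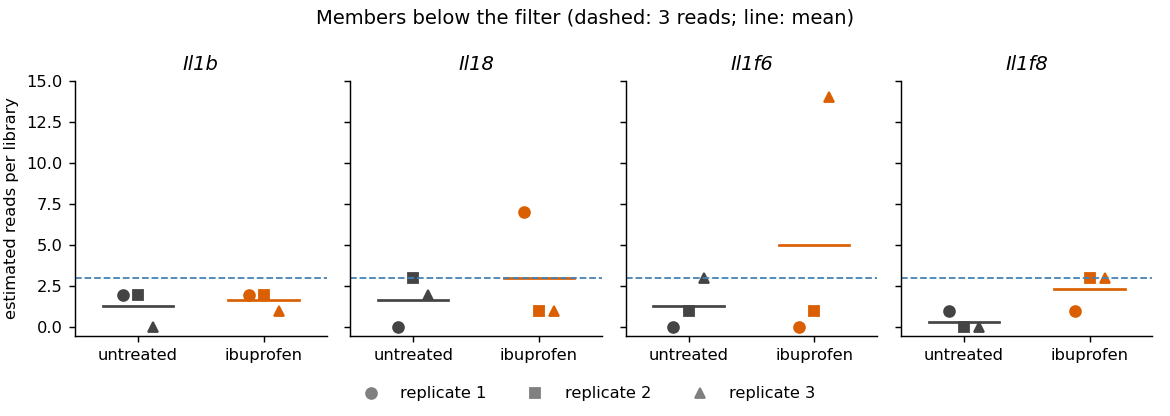
Estimated reads (y axis) of Il1b, Il18, Il1f6 and Il1f8 in each library, by group on the x axis, with solid lines at group means and a dashed line at 3 reads. Il1b lies under the dashed line in all 6 libraries, and the highest point is Il1f6 in ibuprofen replicate 3, at 14 reads.

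Counted over all tested genes, limma called 50 of 16684 higher (0.300%) and 37 lower (0.222%) at an adjusted p under 0.05. Of the 6 members tested, 1 was among those called higher and 0 among those called lower. The called member is Il1f5, and that is the value that chose it, so nothing is read from this count. Its call ended with median-ratio scaling, with a correction for GC content, with no filter, with a filter of 5 CPM and without any single library other than untreated replicate 3. Without untreated replicate 3 the fit called 2 members, Il1f5 and Il1f9. Il1f9 was not called in the fit as reported, nor without any other single library. It was called with library weights and with the replicate block. No tested member lay wholly lower with ibuprofen, as 8.73% of all tested genes did, and nothing is read from how many lay wholly higher, since Il1f5 is one of them. The median log2 fold change of all tested genes was 0.0427.

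Per length the order of the members differed from that by CPM. Levels per kilobase of annotated exon were 81.5 ± 7.57 CPM per kb for Il1r2 (SD, n = 6 libraries), 17.8 ± 7.02 for Il1f9 and 17.5 ± 2.29 for Il1rn. Il1r2 exceeded both in all libraries. Il1f9 and Il1rn overlapped in range. Il1f9 was the lower of the pair in the 3 untreated libraries, at 9.91, 11.2 and 15.8 CPM per kb against 13.7, 19.2 and 16.8 CPM per kb. In the 3 ibuprofen libraries it was the higher, at 19.3, 22.5 and 28.4 CPM per kb against 16.6, 19 and 19.8 CPM per kb. Next came Il1a at 2.95 ± 0.435, Il33 at 1.73 ± 0.944 and Il1f5 at 0.934 ± 0.507 CPM per kb (SD, n = 6), whose ranges overlap from each to the next. Il1f6, Il18, Il1f8 and Il1b followed at means of 0.424, 0.291, 0.151 and 0.114 CPM per kb, with overlapping ranges. Exon lengths joined all annotated transcripts, 7 for Il1f5 and 6 for Il1rn, so these levels depend on which transcripts the cells use.

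**Figure D3:**
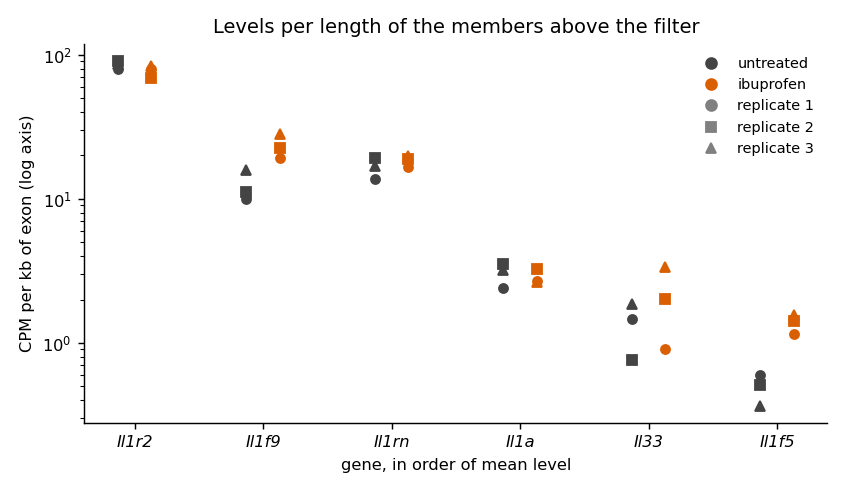
Level per kilobase of exon (CPM per kb, log y axis) of the 6 members above the filter, in order of mean level, with 1 point per library coloured by group and shaped by replicate. Il1r2 lies above the others at 68.5 to 90.3 CPM per kb, Il1f9 crosses Il1rn between the groups, and Il1f5 is the lowest by mean.

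Antagonist and agonist RNA can be set side by side within a library, which leaves out differences in depth. Il1rn per kb was 5.28 to 7.44 times Il1a per kb, with a median of 5.77 over the 6 libraries. Il1f9 per kb was 16.5, 22 and 43 times Il1f5 per kb in untreated replicates 1, 2 and 3, and 16.8, 15.8 and 18.3 times in the ibuprofen libraries. The agonist thus stood above the antagonist in each library, and the ibuprofen ratios lay within or just under the untreated range. Il1rn per kb was 22.7, 37.6 and 45.8 times Il1f5 per kb untreated and 14.5, 13.3 and 12.7 times with ibuprofen. Those ratios are built from the values that chose Il1f5 and are a description.

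The receptors for which these ligands compete were present for IL-1 and IL-36, and nearly absent for IL-33 and IL-18. Of 10 receptors and binding proteins 5 were tested, and 0 were called by limma in either direction. Of all tested genes 0.521% were called, so 0 calls says little for this list or the short ones below. Il1rl2, the IL-36 receptor, had 34.1 ± 1.77 CPM untreated against 34.3 ± 2.42 CPM with ibuprofen (SD, n = 3), a log2 fold change of 0.01 ± 0.12 (SE). Il1r1, the signalling IL-1 receptor, had 7.01 ± 1.55 and 6.76 ± 2.03 CPM, and its accessory chain Il1rap 20.4 ± 2.68 and 21.5 ± 0.502 CPM. Per length the decoy Il1r2 stood 59.3 to 106 times above Il1r1. Il1rl2 was 3.84 to 7.71 times above Il1r1 on the same scale. Il18bp, a soluble trap for IL-18, had 6.16 ± 1.11 and 6.83 ± 0.325 CPM, although Il18 itself was barely detected. Sigirr, an inhibitory receptor of the family, had 3.5, 4.95 and 2.95 CPM untreated against 5.05, 4.45 and 11.4 CPM with ibuprofen, with a log2 fold change of 0.65 ± 0.3 (limma adjusted p = 0.286). Il1rl1, Il18r1 and Il18rap averaged at most 0.433 CPM in either group, and Il1rapl1 and Il1rapl2 at most 0.15 CPM. Il1f10, the further ligand gene of the chromosome 2 cluster, was listed at 0 in all untreated libraries and at 0.15, 0.3 and 0.6 CPM with ibuprofen.

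The intracellular steps downstream were expressed throughout and gave no call. All 17 signalling genes were tested and 0 passed, with a median log2 fold change of 0.079. Those with the smallest p were Irak3, an inhibitory kinase-like protein (0.37 ± 0.16, limma adjusted p = 0.263), the adaptor gene Tab2 (0.22 ± 0.12, adjusted p = 0.342) and the ubiquitin ligase gene Peli1 (0.22 ± 0.12, adjusted p = 0.365). Myd88, the adaptor shared by the family's receptors, had 98.4 ± 3.67 and 96.6 ± 11.8 CPM (SD, n = 3). Of 18 processing genes 6 were tested and 0 passed, with a median of -0.015. Casp1, the protease that matures IL-1 beta and IL-18, had 26.4, 32 and 34.7 CPM untreated against 42.2, 41.5 and 40.2 CPM with ibuprofen. Its groups do not overlap, and its log2 fold change was 0.41 ± 0.13 (limma adjusted p = 0.154). Pycard, the inflammasome adaptor, and Capn1, a calpain (calpains cut IL-1 alpha), had 0.15 ± 0.11 (limma adjusted p = 0.489) and -0.14 ± 0.12 (adjusted p = 0.543). The inflammasome sensors Nlrp3, Nlrp1a, Nlrp1b, Nlrc4, Aim2 and Mefv averaged at most 0.267 CPM in either group, and the neutrophil protease genes Elane, Prtn3 and Ctsg at most 0.966 CPM.

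Genes that NF-kB and IL-1 are known to induce gave 0 calls among 10 tested of 21, with a median log2 fold change of -0.0595. The 3 with the smallest p were Nfkbia, Zc3h12a and Tnfaip3, and none of them passed. Nfkbia, encoding the inhibitor of NF-kB, had 379, 467 and 390 CPM untreated against 312, 284 and 262 CPM with ibuprofen. Its groups do not overlap, and the log2 fold change was -0.52 ± 0.11 (limma adjusted p = 0.0737). Zc3h12a, an RNase that degrades cytokine mRNAs, had 202 ± 9.53 and 153 ± 12.1 CPM (SD, n = 3) and -0.4 ± 0.1 on the log2 scale (limma adjusted p = 0.102). Tnfaip3, encoding the ubiquitin-editing inhibitor A20, had 169, 398 and 238 CPM untreated against 121, 148 and 161 CPM with ibuprofen (-0.82 ± 0.24, limma adjusted p = 0.137). In these 3 of the 10 tested targets every ibuprofen library lay below every untreated one, beside 8.73% of all tested genes, and they are named here for their small p. Nfkbiz, which IL-36 and IL-1 induce in keratinocytes, had 628 ± 158 and 593 ± 17.8 CPM (SD, n = 3). The chemokine gene Cxcl1 had 12.3 ± 6.29 and 17.7 ± 2.26 CPM. Defence genes linked to IL-36 in skin were near 0, with S100a8, S100a9, Defb3 and Defb4 at most 0.233 CPM on average in either group, and Lcn2 at 3.7 CPM in ibuprofen replicate 3 and at most 0.5 CPM in the other libraries.

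**Figure D4:**
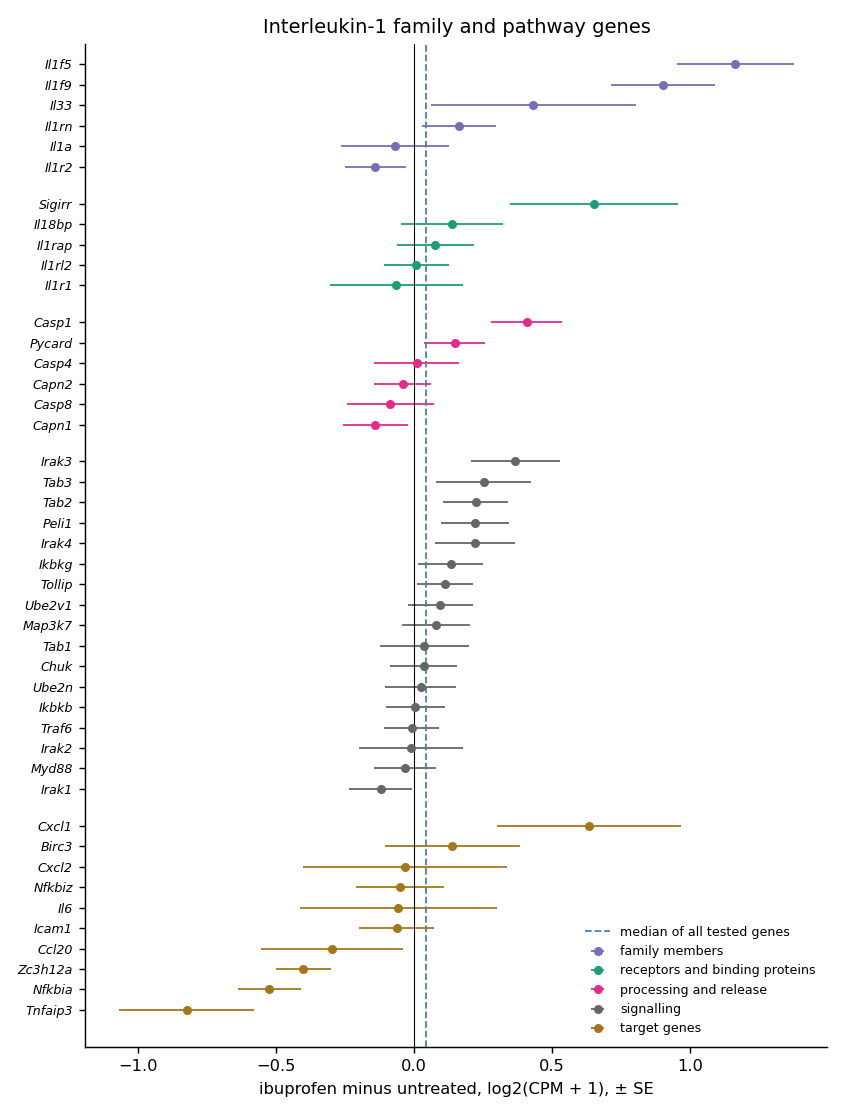
Log2 fold change (x axis, difference of group means of log2(CPM + 1), bars ± SE) of the 6 tested members and the 38 tested pathway genes, grouped by role, with a dashed line at the median of all tested genes, 0.0427. Il1f5 and Il1f9 lie farthest to the right and Tnfaip3, Nfkbia and Zc3h12a farthest to the left.

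Over all 67 pathway genes outside the 10 members, 38 were tested and 0 were called by limma, against 0.521% of all tested genes called in either direction. Before adjustment, 2 genes were higher at p under 0.05 (Irak3 and Casp1) and 3 were lower (Nfkbia, Zc3h12a and Tnfaip3), beside 11.8% and 6.17% of all tested genes. Groups that do not overlap were found in 3 pathway genes in each direction (higher in Irak3, Irak4 and Casp1, lower in Nfkbia, Zc3h12a and Tnfaip3), beside 14.2% and 8.73% of all tested genes. Without untreated replicate 3 Nfkbia was called.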

How the data were processed

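The deposited values are CPM per gene and library, per the file headers, and each column adds up to the same total. The submitters' processing notes list STAR 2.5.3a, Cell Ranger 3.1.0, HTSeq and edgeR without saying what each did, and name GRCm38 and mm10 as builds. No annotation release, strand setting or filter is stated there. Per the labels' protocols, RNA of sorted cells was made into libraries with the Ovation Solo kit and read on an Illumina NovaSeq.

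The CPM lay on a step of about 0.05, as whole reads scaled to a common total and rounded up would give. Reads per gene were estimated by undoing this, which returned at least 99.82% of values above 0 exactly, and served only to describe depth and detection. Genes with at least 1 CPM in at least 3 libraries were tested with limma 3.58.1 (R 4.3.3) on log2(CPM + 1), using its trended variance prior and Benjamini-Hochberg adjustment over all tested genes. The scale understates changes of low genes. The fit was tested on simulated data that gave every gene the same dispersion. Changed genes were drawn from those with a mean of at least 3 CPM, so the shares recovered do not cover lower tested genes. The fit called 55.5% of 200 genes changed 2-fold and 99.0% of 200 changed 4-fold, with 9 and 12 unchanged genes called. With no gene changed it called 0. Changes under 2-fold were not simulated, so a gene not called may still differ. GENCODE M21 gave positions and exon lengths, and RefSeq gave the promoters, matched by symbol. Named pathway genes are all tested receptors and binding proteins, the 3 smallest p of each other list, and further genes chosen after their values were seen. The members and lists were chosen with earlier results of these data known, and motifs and the GC correction after the values were seen. The labels do not say whether each library is a different animal, and p-values cover the variation among these 6 libraries only, which may be technical. In the library names 1 code goes with all untreated and another with all ibuprofen libraries, so a batch it might mark cannot be told apart from treatment.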

Additional observations from a re-analysis of the deposited data

How the results depend on the processing

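The number of called genes, 87 as reported, was 52 with no filter, 2462 with library weights and 434 with the replicate block, and 4 to 456 when 1 library was left out. The number of called members, 1 as reported, was 0 with no filter, 0 with a filter of 5 CPM, 0 with median-ratio scaling, 0 with the GC correction, 2 with library weights, 2 with the replicate block and 0 to 2 when 1 library was left out. Called pathway genes, 0 as reported, were 4 with library weights (Casp1, Nfkbia, Tnfaip3 and Zc3h12a), 2 with the replicate block (Nfkbia and Tnfaip3) and 0 to 1 when 1 library was left out. The replicate numbers mark no known pairing: deviations from the group means correlated at 0, 0.08 and 0.15 for numbers 1, 2 and 3, and not every library correlated best with its own number.

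The log2 fold change of Il1f5 kept its sign in all 15 alternatives, from 0.816 (pseudocount 3) to 1.396 (pseudocount 0.25), as it had to where groups do not overlap and only libraries or pseudocounts change. Il1f9 ranged from 0.755 to 1.085. Il1a lay between -0.205 (without untreated replicate 1) and 0.033 (without untreated replicate 2, a change of sign) when 1 library was left out. Its sign changed in no other alternative run. Il1rn changed sign with library weights (-0.024). The cause of either change was not tested. Il1r2 and Il33 kept their sign, at -0.24 to -0.053 and 0.062 to 0.848. Depth limits Il1b, Il18, Il1f6 and Il1f8 to a few reads per library.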

Other observations

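Ibuprofen replicate 3 held the highest value of several family and related genes among the 6 libraries. These genes were picked after their values were seen. The library had 46.9 CPM of Il1f9, 7 CPM of Il1f5, 9.69 CPM of Il33, 1.6 CPM of Il1f6, 11.4 CPM of Sigirr and 3.7 CPM of Lcn2. The same library had the highest sum of the mast cell list, 16.5 CPM, all of it Kit. Its sums were also the highest for the macrophage (17.7 CPM), dendritic and Langerhans (21.1 CPM), T cell (0.65 CPM) and endothelial (20.2 CPM) lists. They were not the highest for the neutrophil (0.35 CPM), fibroblast (65 CPM) and epithelial (8510 CPM) lists. It had the most estimated reads, 8764370, close to the 8739137 of untreated replicate 2.

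The genes whose log2 level followed Il1f5 most closely over the 6 libraries were Zfp275 (Pearson r = 0.977), Wasf2 (0.976), Sorcs2 (0.976), Mlh3 (0.974) and Acvr2b (0.973). They were taken from 10290 genes with a mean of at least 5 CPM, leaving out Il1f5 and symbols of predicted, clone-named and pseudogene entries. In all, 0.972% of those genes had an r above 0.9. All points share the same 6 libraries and the same step between groups, so these values are a description. Among pairs of the tested members, r over the 6 libraries was highest for Il1f5 with Il1f9 (0.8) and for Il1f9 with Il33 (0.65). Next came Il1rn with Il1f9 (0.63) and Il1a with Il1rn (0.62), and the lowest was Il1f5 with Il1r2 (-0.58). These pairs were picked for their r, and Il1f5 is in the set for its rise.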
